A study of Brassica juncea with 4 samples.

Results

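Floral buds of the maintainer fertile (MF) line of Brassica juncea were examined on their own, with the reads of each microRNA (miRNA) family set beside the reads found at the cleavage sites of its targets. The members were all 288 miRNA entries with values, which came to 248 distinct mature sequences once identical sequences were joined, and 228 of these had at least 1 MF read. Beside them stood the 838 rows of cleavage sites from the MF degradome. These came from 2 of the 4 samples of the series, the small RNA and the degradome library of the MF line, while the other samples belong to a cytoplasmic male-sterile (CMS) line and are not compared here. The MF line keeps a fertile cytoplasm and is the recurrent parent of the CMS line. Each library was made from the pooled buds of 6 plants that flowered under long days, with 1 library per line and assay. No replicate exists, so no spread between plants is known and no test is given. Intervals below cover counting error only, and PCR copies were not told apart from separate molecules. The label of floral buds was not checked against marker genes, because transcript levels were not analysed here.

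Plant miRNAs are short RNAs cut from the stem of a folded precursor, the hairpin. A pair of strands leaves the hairpin, of which the guide is usually loaded into an ARGONAUTE protein while the other arm is usually degraded. The loaded guide pairs with a messenger RNA over most of its length, and ARGONAUTE then cuts the message at a fixed place opposite the guide. Degradome sequencing reads the 5' ends left by such cuts. In flowers, miRNA families are known for their control of transcription factors of meristem, organ and pollen development, of auxin signalling, and of the silencing machinery itself. In this account the guide is the sequence named with a lower-case "miR", taken as the arm that miRBase lists as mature. The other arm is the sequence named MIR with p5 or p3, or marked with an asterisk in miRBase. A family is defined by the number in the name, and names begin with the species of the miRBase entry (ath for Arabidopsis thaliana, ppt for Physcomitrella patens, bra for Brassica rapa).

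The most abundant sequence of each of the 10 largest families is shown here because these sequences carry most of the MF miRNA reads. Capitals mark the seed, bases 2 to 8, and letters are DNA as deposited.
ath-miR319a: tTGGACTGaagggagctccct
ath-miR167a: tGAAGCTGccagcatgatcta
ath-miR160a: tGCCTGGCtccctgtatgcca
ath-miR159a: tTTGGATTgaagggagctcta
ath-miR165a: tCGGACCAggcttcatccccc
ath-miR166a: tCGGACCAggcttcattcccc
ppt-miR894_R+1: cGTTTCACgtcgggttcacca
ath-miR858: tTTCGTTGtctgttcgacctt
ath-miR171a: tGATTGAGccgcgccaatatc
bra-MIR1885-p3: tACATCTTctccgcggaagctc
miR165a and miR166a shared their seed and differed by 1 base, C17T counted from the 5' end of miR165a. The miR319 member ath-miR319c_L+1R-1, which begins 1 base further upstream than its miRBase entry, differed from miR159a at 3 of 21 positions, T7C, T20C and A21T.

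The miR319 family, which is known to target TCP transcription factors of leaf and petal growth, dominated the library. It held 55032 of 90880 miRNA reads, a share of 60.6% (exact Clopper-Pearson 95% interval 60.2 to 60.9%). Its main sequence, shared by miR319a and miR319b, had 50580 reads, and miR319c_L+1R-1 had 3392. After it came miR167 with 8111 reads, miR160 with 4448, miR159 with 4223, miR165 with 3553 and miR166 with 3013. The Poisson intervals of miR160 (4318 to 4581) and miR159 (4097 to 4352) overlapped slightly, while those of the other neighbours in this order did not. These leading families are known regulators of auxin response factors (miR160 and miR167), of GAMYB-like MYB genes of the anther (miR159) and of class III homeodomain-leucine zipper (HD-ZIP III) genes (miR165 and miR166).

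The first 5 families together reached 82.9% of miRNA reads. The next families were miR894 with 1994 reads, miR858, which is known to target MYB genes of flavonoid synthesis, with 1646, miR171 with 1198 and miR1885 with 1189. The last 2 could not be ranked, since the Poisson interval of miR171 was 1131 to 1268 reads and that of miR1885 was 1122 to 1259. Of 58 numbered families with reads, 22 had 100 or more and 36 had fewer. The remaining 12 of the more abundant ones held between 943 reads (miR408) and 138 reads (miR394), with miR2916 at 936, miR156 at 638, miR164 at 401, miR396 at 397, miR390 at 381, miR168 at 362, miR170 at 207, miR169 at 203, miR1103 at 200 and miR845 at 194. At the low end, 16 families had 10 reads or fewer. Predicted candidates without a miRBase number (PC names) added 92 sequences but only 611 reads.

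**Figure D1:**
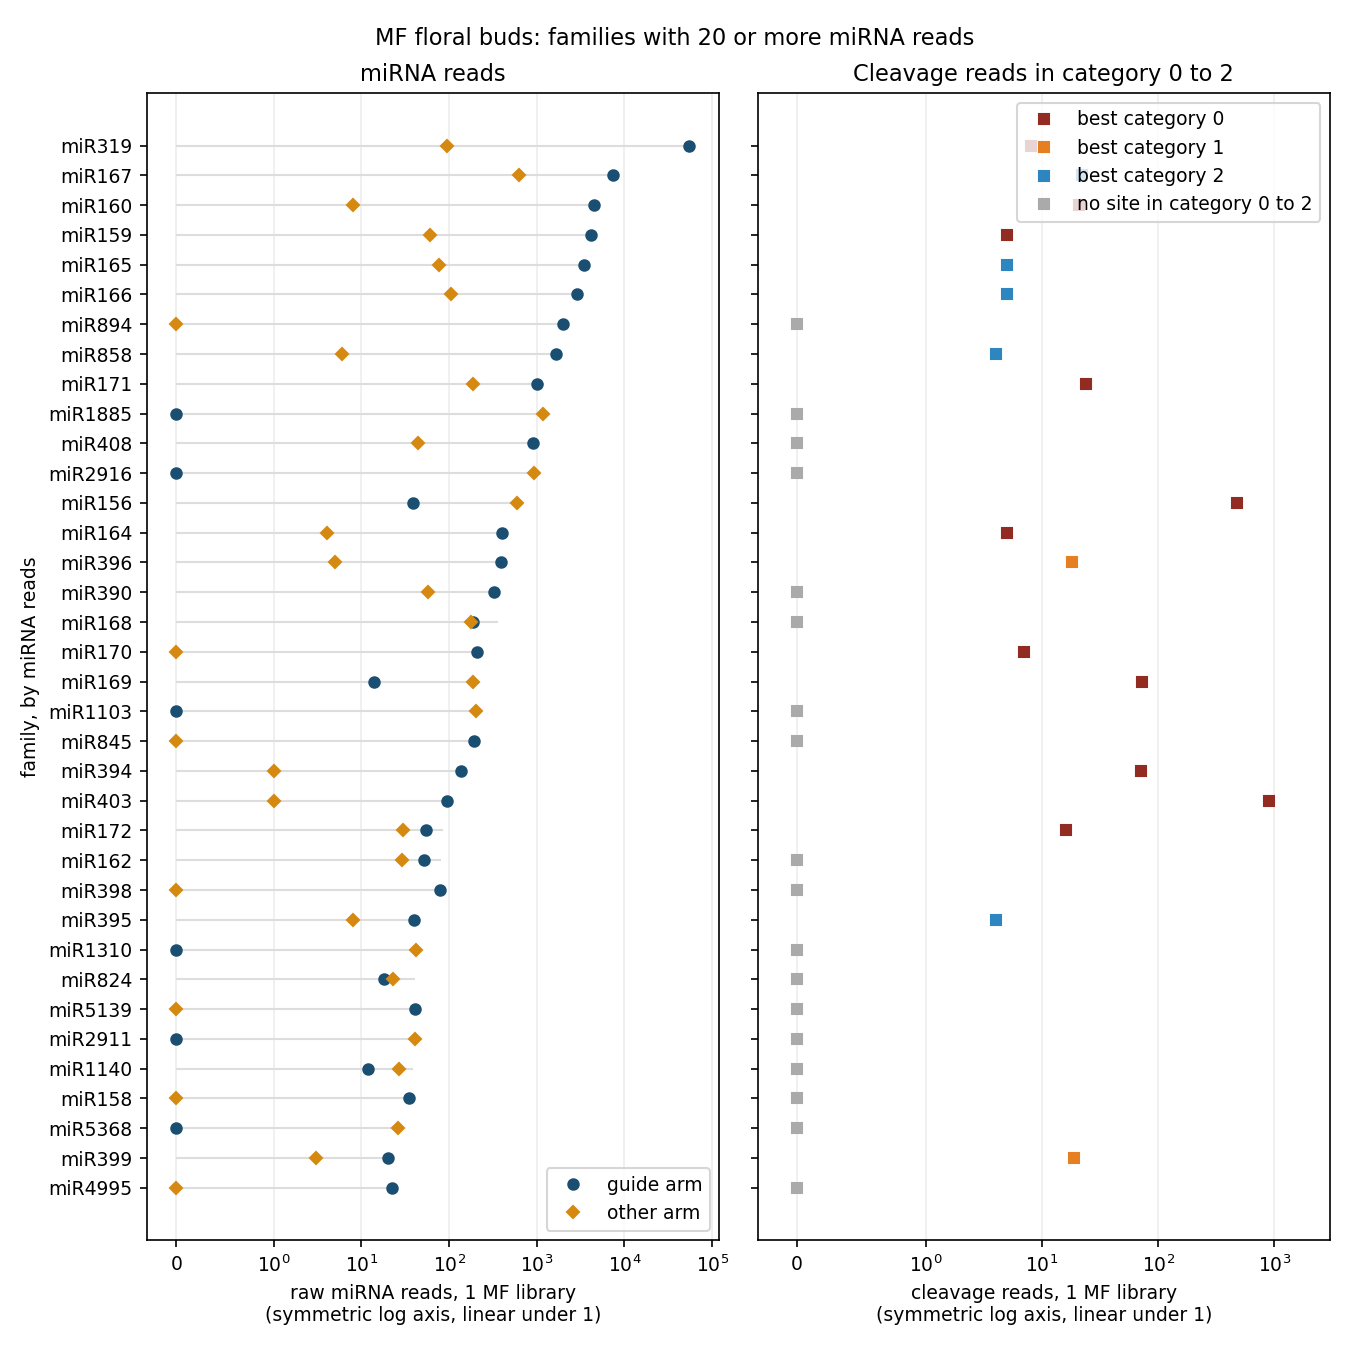
Left, raw MF reads of the guide arm (circles) and of the other arm (diamonds) for the families with 20 or more reads, most abundant at the top. Right, the summed cleavage reads of each family in category 0 to 2, coloured by best category, both on symmetric log axes. miR319 leads the left panel with 55032 reads and has 8 cleavage reads on the right, 5 of them at sites of guide arms, while miR403 with 95 miRNA reads has 901.

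Guide and other arms differed in first base and length. A guide is named by its match to a mature sequence of miRBase, so both features are largely set by that entry. A first base of T, the base known to favour loading into ARGONAUTE1 (where it is a U in the RNA), was found in 48 of 65 guide sequences (73.8%, interval 61.5 to 84.0%) and in 27 of 91 other-arm sequences (29.7%, 20.5 to 40.2%). Sequences of 21 nt made up 50 of the 65 guides (76.9%) and 37 of the 91 other arms (40.7%). By reads, T came first in 95.8% of 85373 guide reads, against 50.0% of 4896 other-arm reads, and the guide value was 88.1% when miR319 was left out. Only 2378 of the other-arm reads came from hairpins with a guide to compare. The rest included 936 reads of miR2916, 200 of miR1103 and 1087 of bra-MIR1885-p3, which begins with T. Every guide sequence had at least 1 read, with a median of 38, while 6 other-arm sequences had none and their median was 5. Sequences within a family resemble each other and are not independent.

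Both arms could be compared for 40 guide sequences, where hairpins with the same guide were joined and their other arms added. The guide arms held 81265 of 83643 reads, 97.2% (interval 97.0 to 97.3%). This figure rested on miR319, and without that family the guide share was 92.3%. Over the 40 guide sequences the median guide share was 88.9%, and it was 96.2% over the 29 with 20 or more reads. Of those 29, 18 had a guide share of at least 90%, and in 5 the other arm was above the guide.

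The most strongly expressed hairpins were nearly pure guide. miR319a had 50580 guide reads against 53 other-arm reads, a guide share of 99.9%. miR160a had 4440 against 8 (99.8%), miR159a 3766 against 61 (98.4%) and miR165a 3476 against 77 (97.8%). miR167a was the exception among the 5 with most reads, with 6967 guide reads against 634 of its other arm (91.7%, interval 91.0 to 92.3%). At smaller totals, miR403 had 94 guide reads and 1 other-arm read, and miR394a had 137 and 1. miR396b had 290 guide reads and 0 of its other arm, a guide share of 100% (interval 98.7 to 100%).

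The opposite held for the guide shared by miR156a to miR156f, of the family known to hold back the juvenile-to-adult and floral transitions through SPL transcription factors. It had 20 reads, against 597 reads of the other arms, a guide share of 3.24% (interval 1.99 to 4.96%). Most of these came from ath-MIR156b-p3 with 419 reads, followed by ath-MIR156e-p3 with 102 and ath-MIR156a-p3 with 56. The hairpin of miR156h went the other way, with 16 guide reads against 2 other-arm reads (88.9%, interval 65.3 to 98.6%). The miR156b hairpin lies on chromosome 4 of the Arabidopsis genome (TAIR10), 15074899 to 15075081, on the plus strand. In miR169, known to target the NF-YA subunits of a CCAAT-binding complex, the guide of miR169e had 6 reads against 164 of the other arms (3.53%, interval 1.31 to 7.52%), and nearly all of them came from ath-MIR169e-p3 on chromosome 1, 20041518 to 20041734, plus strand.

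Smaller totals showed the same order in 3 further hairpins. The Brassica napus miR1140 had 12 guide reads against 27 of its other arm, a guide share of 30.8% with an interval that ended at 47.6%. miR172a had 12 against 22 (35.3%, 19.7 to 53.5%) and miR824 had 18 against 23 (43.9%, 28.5 to 60.3%), and for these the interval included equality. miR172 is known to target AP2-type floral genes and miR824 a MADS-box gene. miR168a, singled out after its values were seen, stood near equality with 186 guide reads against 172 of the other arms (52.0%, interval 46.6 to 57.2%). Both arms of the 5 hairpins with more other-arm reads are printed to show which strand was sequenced, the guide first and the most abundant other arm after it, with bases 2 to 8 in capitals.
ath-miR156a: tGACAGAAgagagtgagcac
ath-MIR156b-p3: tGCTCACCtctctttctgtcagt
ath-miR169e: tGAGCCAAggatgacttgccg
ath-MIR169e-p3: gCAAGTTGactttggctctgt
bna-miR1140: aCAGCCTAaaccaatcggagc
bna-MIR1140-p5: cCGATTGGctttaggctgttgt
ath-miR172a: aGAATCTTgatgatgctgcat
ath-miR172b*_R+1: gCAGCACCattaagattcaca
ath-miR824: tAGACCATttgtgagaaggga
ath-MIR824-p3: cCTTCTCAtcgatggtctaga

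**Figure D2:**
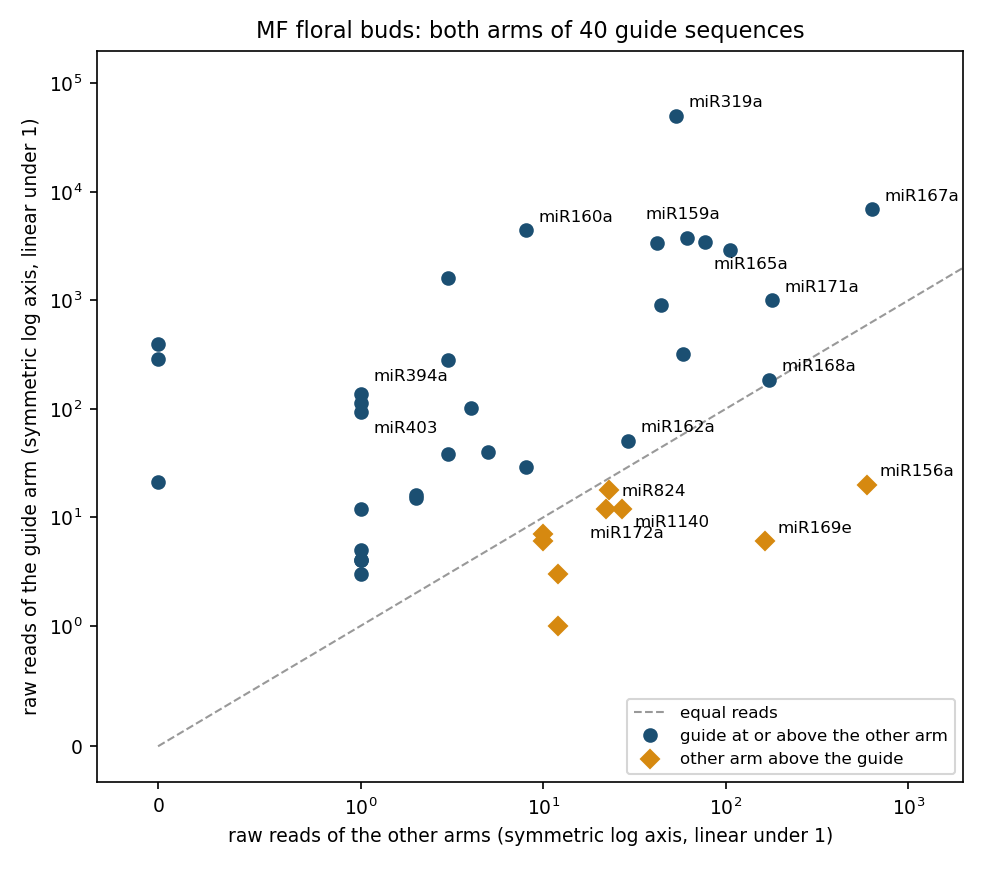
Raw MF reads of the guide (vertical axis) against those of the other arms (horizontal axis) for 40 guide sequences on symmetric log axes, with the dashed line at equal reads. Most points lie above the line, miR168a lies near it, and miR156a (20 guide against 597 other-arm reads) and miR169e (6 against 164) lie farthest below it.

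Not every family had a sequence named as a guide. miR1885 of Brassica was listed only under names of other arms, bra-MIR1885-p3 with 1087 reads and bra-MIR1885-p5 with 102. Both count as other arms here by name alone, and whether the more abundant p3 sequence is the loaded strand was not tested. miR2916 was listed by peu-MIR2916-p3 with 583 reads and peu-MIR2916-p5 with 353, but these sequences overlapped over 23 of their 24 bases, with starts 1 base apart, so they are not opposite arms of a stem. miR1103 had a single listed sequence of 19 nt with 200 reads. In all, 18 families had no sequence named as a guide with reads.

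The MF degradome assigned each site a category by its height on the transcript. In category 0 the site has more than 1 read and is the single highest position of the transcript, in category 1 it ties with other positions for the highest, in category 2 it is above the median of the transcript but not the highest, in category 3 it is at or below the median, and in category 4 it has 1 read. Heights in the deposited categories were not those in raw reads. Of 9 transcripts with a category 0 site and a site of category 2 or more, 2 had at least as many raw reads at the other site, and 0 did after reads were divided by the transcripts they hit. The 838 rows comprised 160 in category 0, 35 in category 1, 263 in category 2, 69 in category 3 and 311 in category 4. A gene with several transcripts or miRNA names takes several rows, so counts below are of genes. Joining by name linked 92 of the 124 miRNA names in these rows to an entry with values.

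A category 0 to 2 site was found for 14 of the 22 families with 100 or more reads (63.6%), against 12 of the 36 with fewer reads (33.3%) and 26 of all 58 families (44.8%). A category 0 site was found for 9 of the 22 (40.9%), against 15 of 58 (25.9%). A gene known in Arabidopsis as a target is listed for only 27 of the 58 families. Sites on such a gene of the same family were present for 12 of the 17 listed families with 100 or more reads (70.6%), against 5 of the 10 listed families with fewer reads (50.0%) and 17 of all 27 (63.0%). Among the genes in category 0 to 2, 26 of 113 were such known targets (23.0%), compared with 41 of 241 over all categories. Narrowed to category 0, 17 of 20 genes were on the list.

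The silencing pathway gave the highest cleavage reads of the library. AGO2 (AT1G31280), an ARGONAUTE known for antiviral defence and cut by miR403, had 901 reads at position 3233 of its 3343-nt transcript (category 0, exact Poisson interval 843 to 962). The gene lies on chromosome 1 of TAIR10, 11181711 to 11185344, and the site is 110 nt from the transcript's end. miR403 itself had only 95 reads, rank 23 of the families. The sequence behind this site is shown with the next highest, that of miR393.
ath-miR403: tTAGATTCacgcacaaactcg
ath-miR393a: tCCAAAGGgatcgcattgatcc
For AGO1, the target of miR168 and the main ARGONAUTE of miRNA action, the reverse was seen, with 362 miRNA reads and a single cleavage read in category 4. DCL1, the enzyme that cuts the hairpins and a known target of miR162, had no row beside 80 miRNA reads.

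Auxin perception was next. miR393, known to cut the TIR1/AFB family of auxin receptors, had 10 reads in all (Poisson interval 4.80 to 18.4), which placed it among the 16 families with 10 reads or fewer. Its sites were among the highest, with 361 reads on AFB3 (AT1G12820, interval 325 to 400), 337 on AFB2 (AT3G26810, 302 to 375), 8 on AFB1 (AT4G03190) and 10 on TIR1 (AT3G62980). The first 3 were in category 0 and TIR1 in category 2. Reads that matched both AFB2 and AFB3 were counted at both, and the deposited value divided by the number of transcripts hit was 192.5 for AFB3 and 168.5 for AFB2. The families acting on auxin response factors showed the other combination, many miRNA reads and few cleavage reads. miR160 had 4448 miRNA reads, with 16 cleavage reads on ARF17 and 5 on ARF16 (both category 0). miR167 had 8111, with 17 on ARF8 and 5 on ARF6 (both category 2), genes known to act in stamen and ovule maturation.

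SPL genes carried the third group of high sites. SPL10 (AT1G27370) had 224 reads (interval 196 to 255) and SPL11 (AT1G27360) 223 (195 to 254), both in category 0. These neighbours on chromosome 1 share reads, and after division by the number of transcripts hit the deposited values were 28.4 and 28.1 per transcript. SPL5 had 18 reads in category 0, SPL6 (AT1G69170) 5 and SPL2 3 in category 1, and SPL4 1 read in category 4. The guide arms of miR156 came to 39 reads and that of miR157 to 12. The miR157 name with values, ath-miR157d_L+1, begins 1 base further upstream than its miRBase entry. It was linked to SPL10 only at a site 1 nt away, with 4 reads in category 2, and to the same SPL2 site as miR156. The miRBase form ath-miR157d, a name without values, was linked to the SPL10 site of 224 reads, so these reads cannot be divided between miR156 and miR157. Of the AP2-type genes cut by miR172 (85 reads, 55 of them guide), AP2 had 11 reads and TOE2 5, both in category 0.

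Transcription factors of meristem and organ identity gave sites of few reads beside abundant families. miR165 and miR166 were linked to the same sites, 3 reads on CNA (AT1G52150) and 2 on REV (AT5G60690), both in category 2. The related HD-ZIP III genes PHV and ATHB8 had 2 reads in category 3, and PHB had 1 read in category 4. miR171 had 13 reads on HAM1 and 7 on HAM2 in category 0, with a further site on HAM2 3 nt upstream holding 11 reads in category 2. After division by the transcripts hit, that site had 6 reads and the category 0 site 7. HAM genes are GRAS-family regulators that maintain meristems. The 207 reads of miR170 were linked to the same 7 reads on HAM2. miR164 had 5 reads on CUC1, a gene of organ boundaries, in category 0.

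NF-YA9, a target of miR169, had 67 reads in category 0 (interval 51.9 to 85.1) beside 14 guide reads of the family. The site was linked to miR169a with 4 reads and miR169b with 3. miR394, whose target LCR (AT1G27340) encodes an F-box protein of leaf and stem cell patterning, had 71 cleavage reads in category 0 (55.5 to 89.6) and 138 miRNA reads. Both families thus combined modest miRNA reads with sites more than 3 times higher than any site of the 5 most abundant families, where ARF8 was the highest with 17 reads.

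TCP genes, the known targets of miR319, were at the floor of the assay. TCP2, TCP3 and TCP4 each had 1 read, in category 4, beside the 55032 reads of the family. The only category 0 site of miR319 was on MYB65 (AT3G11440), with 5 reads (interval 1.62 to 11.7). It was predicted for miR319c_L+1R-1 and lay at position 1166, the same position and the same reads as the site of miR159, so these reads cannot be divided between the families. The family's other site in category 0 to 2 was on AT3G57990, with 3 reads in category 2, and was linked to ath-MIR319b-p5, an other-arm sequence with 0 MF reads. MYB33, the other known target of miR159 with a row linked to that family, had 1 read in category 4. miR858 was linked to MYB11 and MYB42 with 2 reads each in category 2, and to MYB12, MYB111 and RAX3 with 2 reads each in category 3. These reads matched several transcripts, and after division by the transcripts hit the deposited values were 0.35 for each gene in category 2 and 0.225 for each in category 3. Only MYB11, MYB12 and MYB111 of these were on the list of known targets.

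**Figure D3:**
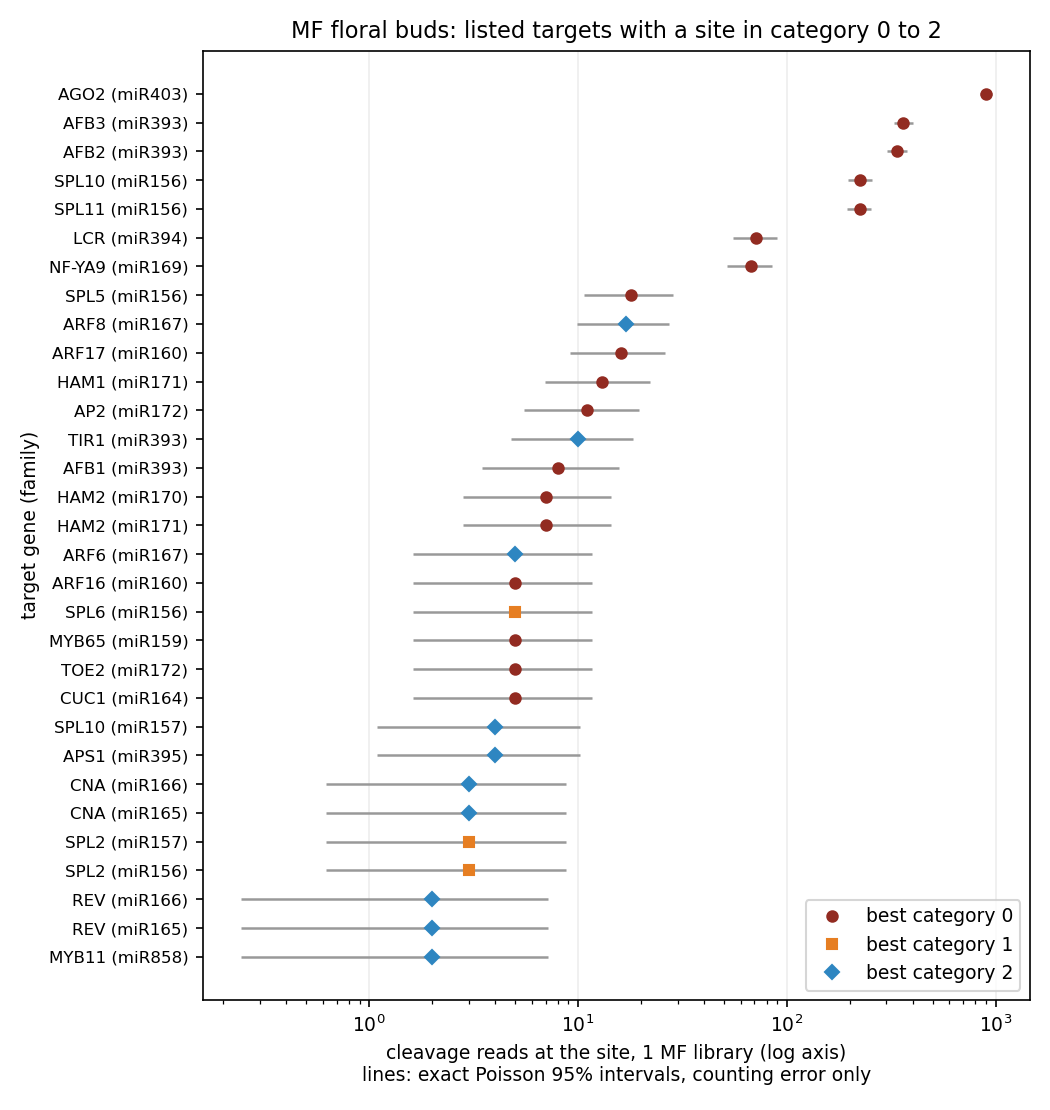
Cleavage reads at the best site of each known target gene in category 0 to 2, with the family in brackets, on a log axis. Lines are exact Poisson 95% intervals for counting error. AGO2 stands at 901 reads, AFB3, AFB2, SPL10 and SPL11 between 223 and 361, LCR and NF-YA9 at 71 and 67, and all other genes at 18 or fewer.

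Sites were missing for 8 of the 22 families with 100 or more reads, namely miR894, miR1885, miR408, miR2916, miR390, miR168, miR1103 and miR845. Of these, miR894, miR1885, miR2916, miR1103 and miR845 had no target on the list, and miR1885, miR2916 and miR1103 had no sequence named as a guide. Sites were sought on Arabidopsis transcripts only, so targets found only in Brassica could not appear. Whether listed sequences such as those of miR2916 and miR1103 are fragments of ribosomal RNA was not tested, and they are counted as listed. miR168 had the AGO1 read in category 4 and the other 7 families had no row of any category. The known targets of miR408, which are genes for copper-binding proteins, and of miR390, the TAS3 precursor of trans-acting small RNAs, were therefore without a read in these rows beside 943 and 381 miRNA reads. Among families of nutrient responses with fewer reads, miR395 (48 reads) had 4 reads on the ATP sulfurylase gene APS1 in category 2, and miR398 (78 reads) had no row for its superoxide dismutase targets.

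Across families, the rank order of miRNA reads followed that of cleavage reads only weakly. Spearman's rho was 0.24 over 58 families with those lacking a site set to 0. It was -0.14 over the 26 families with a site and -0.27 over the 17 with a known target in category 0 to 2, but these sets were chosen by the cleavage reads that enter the correlation, so the sign there is not read as a relation. All families share the same pair of libraries, and related families share cleavage reads, so these are descriptions. The 5 most abundant families held 82.9% of miRNA reads and 58 of the 2375 cleavage reads at sites of guide arms (2.44%). The 5 families chosen for having 50 or more such reads, miR403, miR393, miR156, miR169 and miR394, held 1.19% of miRNA reads and 2228 of the cleavage reads (93.8%). With the deposited values divided by the transcripts hit, these shares of the cleavage signal were 3.03% and 92.9%. The shares of miRNA reads cover both arms, and 599 of 638 miR156 reads and 189 of 203 miR169 reads were of other arms.

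**Figure D4:**
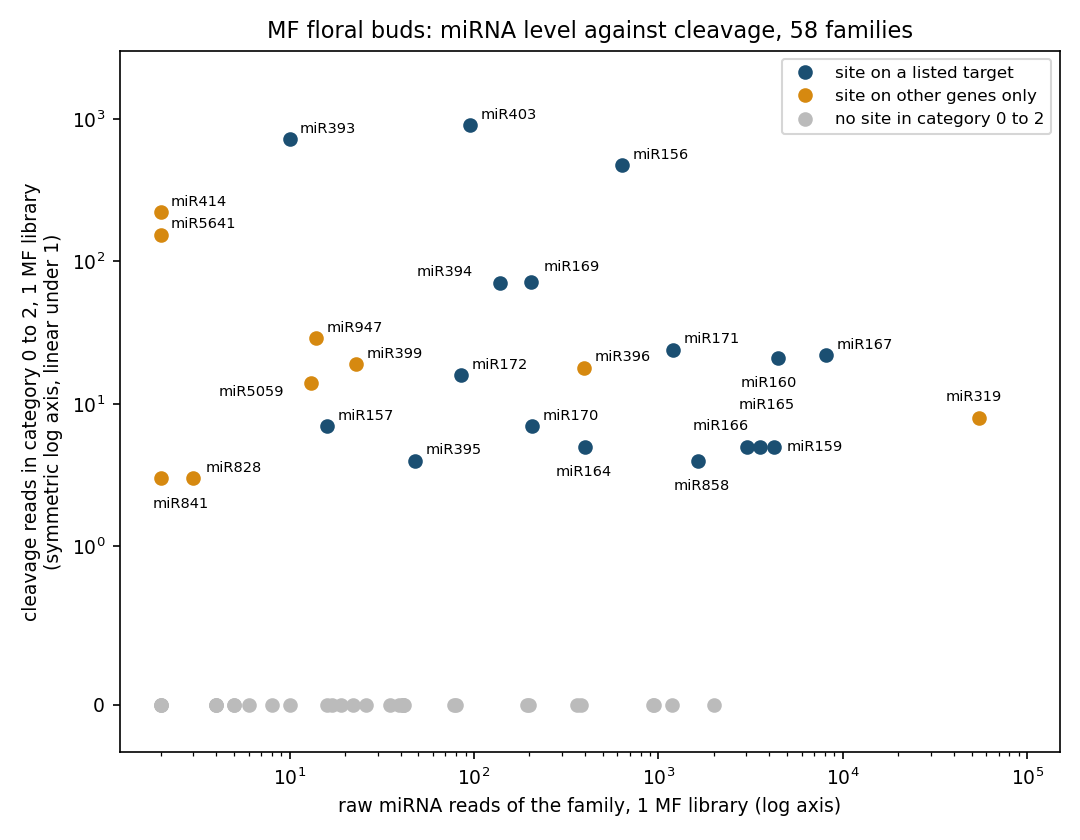
Summed cleavage reads in category 0 to 2 (symmetric log axis) against raw miRNA reads (log axis) for 58 families in the MF libraries, coloured by whether a site lies on a known target. miR393 (10 miRNA reads, 716 cleavage reads) and miR403 (95 and 901) lie at the upper left, and miR319 (55032 and 8) lies at the far right near the bottom.

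Sites in category 0 to 2 came from 35 of 65 guide sequences and 8 of 91 other-arm sequences. The guides formed 37 pairs of family and gene, of which 31 (83.8%) were on the list of known targets and 4 were in families without a listed target. The other arms formed 86 pairs, 73 of them in families without a listed target. The list was drawn up for guide strands, so the 0 known targets among these pairs say nothing of a difference between the arms. The pairs of guides outside the list, named after their values were seen, were MYB65 with miR319, MYB42 with miR858, AT3G25795 with miR828 (3 reads, category 0), and AT3G09440, HSC70-1 and PHT3;1 with a 17-nt form of miR5059. The list held no target of miR828 or miR5059 and is not complete, so a pair outside it may still be known in Arabidopsis. A CleaveLand p under 0.05 was reached by 21 of the 37 pairs of guides, 0 of the 86 pairs of other arms and 0 of the 17 pairs of predicted candidates. Of the 86, 66 came from a 15-nt sequence and a repetitive one described next, so the 0 says nothing of a difference between the arms.

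Most of the other-arm pairs came from a pair of sequences with few reads. ath-MIR5641-p5, of 15 nt and with 2 reads, was linked to 39 genes, and ath-MIR414-p5, which is largely made of the unit TCA and had 2 reads, to 27 genes, together 66 of the 86 pairs. They are shown with a further pair of 15-nt sequences that have sites, because each is either short or, for ath-MIR414-p5 with its 21 nt, repetitive.
ath-MIR5641-p5: tCTATCATcttcttc
ath-MIR414-p5: tCATCATCatcgtcatcatca
osa-MIR396h-p5_3ss3AT6TC9CA: gGTGGCGGaggagga
pab-MIR947-p3: cAGCAGCAgattctg
Of the 8 other-arm sequences with a site, 5 were of 17 nt or shorter, as was 1 of the 35 guides. These were also the only sequences of that length among the 91 other arms and the 65 guides. With candidates included, 10 of 13 such short sequences had a site, so the contrast is not read as one between arms. The highest sites of other arms were those of ath-MIR414-p5, with 38 reads on TUA2 and 26 on AT1G73230, both in category 2. The highest in category 0 had 16 reads, on AT1G49920, and was of the same sequence. The sites counted above for miR396 came only from the 15-nt osa-MIR396h-p5, which had 1 read. Its best sites were on AT2G28440 and AT2G34360, with 2 reads each in category 1, and none was on a GRF gene, the known targets of that family. Similarly, the sites of miR947 and miR399 came only from sequences of 15 and 16 nt. With guide arms alone on both sides, 11 of 17 families with 100 or more guide reads had a category 0 to 2 site, against 20 of all 40 families with guide reads. miR156 and miR169 have guide-arm sites but are not among the 17, since they had 39 and 14 guide reads.

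**Figure D5:**
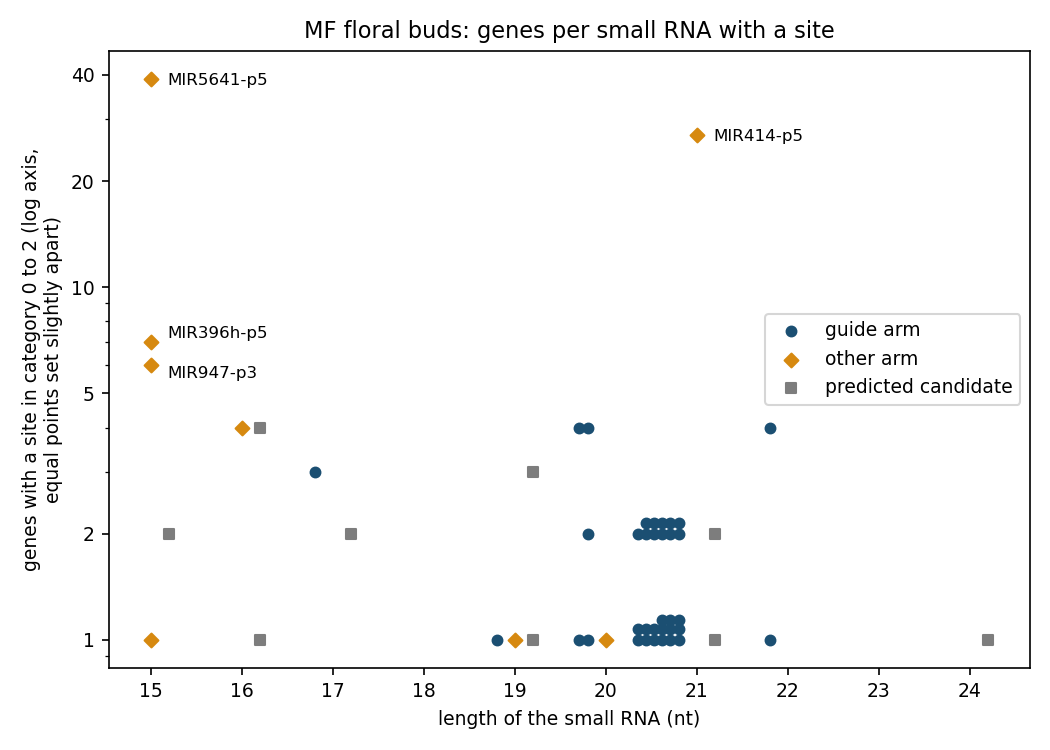
Number of genes with a site in category 0 to 2 (log axis) against the length in nt of each small RNA that has a site, for guide arms, other arms and predicted candidates. Guides lie mostly at 20 to 22 nt with at most 4 genes, while ath-MIR5641-p5 (15 nt) reaches 39 genes and ath-MIR414-p5 (21 nt) 27.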

How the data were processed

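The small RNA library of MF buds held 11845753 raw and 7331757 mappable reads, and the degradome 7717843 reads mapped to cDNA, per the deposited tables. The authors clipped adapters and removed reads under 15 nt and long reads (over 30 nt in their deposited table, although a few listed sequences reach 32 nt), compared the rest with miRBase 18.0 and folded hairpins with Mfold. They deposited raw counts per miRNA and a normalized value, used here as a score in an alternative. For the degradome, the authors aligned reads to Arabidopsis cDNA (TAIR10 in the submitters' notes) with CleaveLand 3.0 and deposited counts of reads at each site, a signal in which reads are divided by the transcripts they hit, an alignment score, a category and a p-value. Transcripts of B. juncea without an Arabidopsis match were not counted. Deposited ratios between the lines were not used.

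Identical mature sequences were joined and raw reads summed per family. Rows of cleavage were joined by miRNA name. The highest count per gene in category 0 to 2 was taken and summed over genes. Asterisk names of miRBase were treated as other arms. Exact intervals were at 95%. No replicate existed, so no test between groups was made. The calculations were tested on simulated data.

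Families named are the 10 with most reads, all others with 100 or more, and those under 100 with a category 0 site of 10 or more reads. Per family up to 3 genes and all known targets in category 0 to 2 are named, and of hairpins with 20 or more reads the 5 with most reads, the 5 with the lowest guide share and all with the other arm above the guide. Target symbols not in the files come from general knowledge of Arabidopsis. The members and the list of 93 known targets were chosen with earlier results of these data known. Python 3.11.15, pandas, numpy and scipy were used.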

Additional observations from a re-analysis of the deposited data

Results flagged for a closer look

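Sites were also listed for 32 miRNA names that had no entry with values and so entered no sum above. Of these names, 21 had a category 0 to 2 site, and 13 of them reached only genes already linked to a name with values. The 3 with most rows were ath-miR414, ath-miR5021 and, among several with equal rows, ath-miR156g. On genes that no name with values reached, more than 3 reads were seen only for 2 names. These were ath-miR414 with 19 reads on AT5G05700 (ATE1) and ath-miR5650 with 22 reads on AT5G37640 (UBQ9), both in category 2. A category 2 site is not the highest of its transcript. For comparison, the repetitive ath-MIR414-p5 had 38 reads in category 2 on TUA2 at a CleaveLand p of 0.999971. The p of the ATE1 and UBQ9 sites is not given here, and whether either gene is a target was not tested.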

How the results depend on the processing

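The miR319 share was 58.9% with every entry counted on its own, 64.3% with guide arms only and 64.0% with ath names only. The 14 of 22 abundant families with a category 0 to 2 site became 8 of 10 at 1000 or more reads, 9 with category 0 only and 9 with CleaveLand p under 0.05. Spearman's rho of 0.24 became 0.23 with distinct transcripts, 0.22 with reads divided by hits, 0.22 with category 0 only, 0.22 with all categories, 0.31 at p under 0.05, 0.23 with families that share targets merged and 0.37 over 36 families with 20 or more reads. It turned to -0.14 over families with a site only. In alternatives chosen after seeing the data it was 0.27 with guide arms only, 0.22 with names lacking values included, and -0.19 over 20 families with guide arms and a site. The pooled guide share was 92.3% without miR319 and 98.4% with shared guides counted for every hairpin. The median guide share was 96.2% at 20 or more reads and 88.6% over hairpins counted separately. Known targets numbered 17 in category 0, 41 in all categories and 17 at p under 0.05, against 26. The other 8 alternatives stayed within the counting interval or within 1.5 times the count. Why these values moved was not tested, beyond the smaller or larger sets that each setting leaves. No paired analysis was possible because each group had 1 library. Sites of 2 or 3 reads allow only wide intervals, and 43 sequences rested on 1 read. The levels of the target transcripts were not analysed here, so cleavage reads per transcript cannot be given.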
